A study of Mus musculus with 45 samples.

Results

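To describe long noncoding RNAs that carry small nucleolar RNAs (snoRNAs) in their introns, 9 snoRNA host genes were looked up by name in SLAM-seq tables of primary mouse cortical cells. Gas5, Snhg3, Snhg5, Snhg6 and Snhg15 had a row among 53491 genes, while Zfas1, Snhg1, Snhg8 and Snhg12 were not analysed here. SLAM-seq labels RNA with 4-thiouridine (4sU), which is read as a T-to-C conversion, so that loss of conversions after the label is withdrawn reports decay. Cells of WT embryonic cortex were taken on day E11.5, E14.5 or E16.5, dissociated, cultured with 100 uM 4sU for 20 h, chased with 5 mM uridine and collected at 0, 2, 4, 8 and 12 h. Each of 15 groups held 3 libraries (pools A, B and C, of 7 embryos each at E11.5 and 2 at the later stages), and the 5 libraries of a letter within a stage are wells of 1 pool. All 45 libraries were exposed to 4sU and to culture in a progenitor medium with bFGF, and none without label was used here. The cells are a mixture, so a lower level in bulk cannot be told apart from fewer cells that express the gene.

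snoRNAs guide chemical modification and processing of ribosomal and other RNAs. Most in mammals are cut from introns while the host transcript is spliced, and the spliced remainder of noncoding hosts such as Gas5 usually holds only short reading frames. Ribosomes that engage such a frame stop early, and the spliced RNA is a known substrate of nonsense-mediated decay (NMD), the pathway that removes transcripts with premature stops. Many host genes, coding or noncoding, belong to the 5′ terminal oligopyrimidine class, whose transcripts begin with C and a run of pyrimidines.

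The start of each host is shown because it is the stretch by which that class is recognised. Each line gives 30 bases of RefSeq starts on GRCm38.p6, 5′ to 3′ on the strand of the gene, with 10 bases before the start and 20 transcribed bases, and capitals mark the longest run of C or T among the transcribed bases. RefSeq starts were at hand for Gas5, Snhg3, Snhg5 and Snhg15, and that of Snhg6 is only named.
Gas5, start 1, chr1:161034591-161034620: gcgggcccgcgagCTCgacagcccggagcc
Gas5, start 2, chr1:161035156-161035185: ccatctcagcCTTTCggagctgtgcggcat
Snhg3, chr4:132353667-132353696: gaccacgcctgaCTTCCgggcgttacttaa
Snhg5, chr9:88522878-88522907: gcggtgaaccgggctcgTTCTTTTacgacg
Snhg15, chr11:6528741-6528770: ctgtgaccgtaaCTTTaagcacacgtgagc
Only start 2 of Gas5 began at its first transcribed base with C followed by 4 bases that were each C or T, a form held by 823 of 32851 RefSeq starts (2.51%). The runs of Snhg3 and Snhg15 began at base 3 of the transcript, and that of Snhg5, 7 bases long, at base 8. Runs of at least 7 anywhere in the first 20 bases occurred in 11.1% of starts and runs of at least 4 in 53.2%. These are matches of letters on 1 strand, and annotated starts may differ from those used in these cells.

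In the GENCODE annotation of the same build, Gas5 (ENSMUSG00000053332, chromosome 1, 161034422 to 161038539, plus strand) spans 10 entries of the type snoRNA, of which 1 carries the name Mir5117 and 2 that overlap are both named Snord80. Snhg3 (ENSMUSG00000085241, chromosome 4, 132348014 to 132353686, minus) spans Snora73a and Snora73b, which belong to the U17 family needed for ribosomal RNA processing. Snhg5 (ENSMUSG00000097195, chromosome 9, 88521050 to 88522929, minus) spans Snord50a and Snord50b. Snhg6 (ENSMUSG00000098234, chromosome 1, 9941959 to 9944118, minus) spans Snord87, and Snhg15 (ENSMUSG00000085156, chromosome 11, 6525591 to 6528760, minus) spans Snora9. All are annotated as processed transcripts except Snhg6, a lincRNA. Values in the tables are sums over exons. All snoRNA entries of Gas5 and Snhg5, and Snora9 of Snhg15, lie inside merged exons (exons of all transcripts joined). Snora73a reaches into a merged exon of Snhg3, while Snora73b and Snord87 lie outside the merged exons of their hosts. Reads on snoRNA stretches inside exons may be counted for the host, and their part was not tested. Of the 986 exon bases of Snhg3, 135 (13.7%) are shared with Rcc1 on the same strand and 705 (71.5%) face Gm17300 on the other. Of the 1146 exon bases of Snhg6, 127 (11.1%) face Mcmdc2. The libraries were made with a stranded mRNA kit, but the use of strand in counting is not stated, so reads from these stretches are uncertain. Exons here are those of GENCODE release M21, and the authors summed values over exons of a later release.

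**Figure D1:**
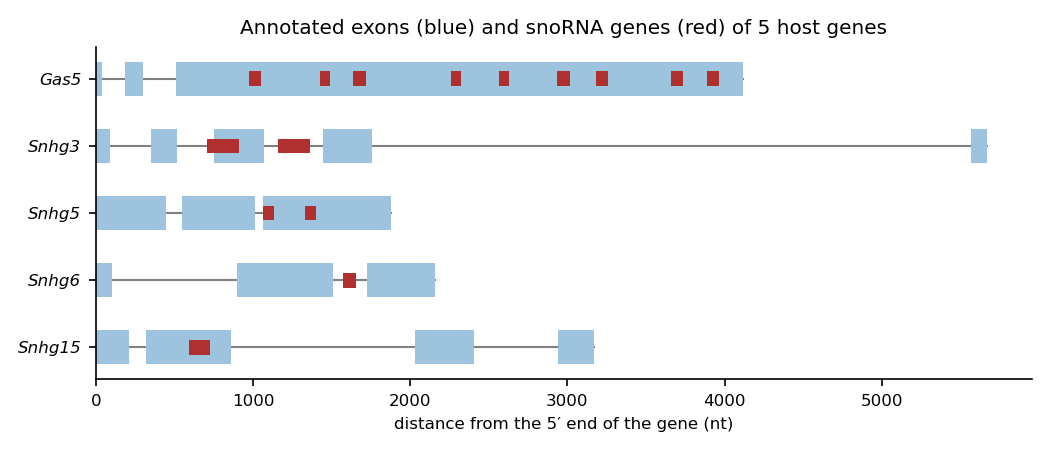
Merged annotated exons (blue) and entries of the type snoRNA (red) of the 5 host genes, drawn to scale by distance in nt from the 5′ end of each gene. Gas5 spans 10 annotated snoRNA entries, including 2 overlapping entries of Snord80, Snhg3 and Snhg5 span 2 each, and Snhg6 and Snhg15 span 1 each.

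Libraries held 15.9 to 43.9 M recovered reads. Snhg3, Snhg6 and Snhg15 were measured in every library. Snhg6 had 215 to 977 reads, Snhg3 64 to 369 and Snhg15 15 to 128. Gas5 and Snhg5 were nearly empty. Gas5 was listed at 0 in 27 of 45 libraries and never had more than 6 reads, with 39 in all, and these covered 2.95 Ts per read against 13.7 for Snhg6. Snhg5 was also listed at 0 in 27 libraries, with 29 reads in all. A count of 0 allows up to 3 reads, or 0.0622 to 0.169 of the deposited expression unit, cpm (counts per M reads), depending on the library, and this limit covers counting error only. The empty rows do not show that the RNAs are absent. Rps12, a ribosomal protein gene that every cell uses, was listed at 0 to 0.107 cpm in the same libraries, and Gapdh had 2.71 to 8.64 cpm against 3332 to 4845 cpm for Actb. Rps12 is itself a snoRNA host by annotation. Among other protein-coding hosts, Hspa8 had 1.35 to 3.87 cpm and Rpl13a 1.65 to 4.08 cpm, but Eef2 had 2375 to 3735 cpm. Of 240 protein-coding hosts with a row, 28 had a mean below 1 cpm at 0 h, beside 38948 of all 53491 genes. The reason for these low rows was not tested.

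Snhg5 was present with 2, 3 and 6 reads at 0 h of E16.5 and with none at 12 h. At 0 h of E11.5 it had at most 1 read in a library, and at 0 h of E14.5 at most 4. Its E16.5 libraries at 0 h (0.0711 to 0.160 cpm) did not overlap with those at 12 h, but each lies at or near the limit of a count of 0. Neither Snhg5 nor Gas5 passed the count filters, so neither is part of the tests that follow.

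The first question was how the level of each host differed between stages before the chase. Snhg6 was lowest at E11.5, Snhg3 was lowest at E16.5, and Snhg15 did not pass the test between any stages. Snhg6 had 13.8, 11.4 and 9.92 cpm in pools A, B and C of E11.5, then 20.0, 16.1 and 20.7 cpm in those of E14.5, and last 17.0, 15.3 and 15.6 cpm in E16.5 pools. All E11.5 pools lay below all pools of the later stages, and E14.5 and E16.5 overlapped. E14.5 exceeded E11.5 by a log2 difference of 0.73 (SE 0.13, edgeR adjusted p = 0.000441), and E16.5 exceeded E11.5 by 0.55 (SE 0.13, adjusted p = 0.00222). Between the later stages the difference, E16.5 minus E14.5, was -0.18 (SE 0.13, adjusted p = 0.273). The stage comparisons share libraries.

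Snhg3 ran the other way. Its E11.5 pools had 8.45, 6.64 and 6.34 cpm, its E14.5 pools 5.69, 5.61 and 5.88 cpm, and its E16.5 pools 4.49, 3.67 and 4.01 cpm. No pool of one stage overlapped with a pool of another. The log2 difference of E16.5 minus E14.5 was -0.43 (SE 0.13, edgeR adjusted p = 0.0146, and 0.0624 without E16.5 replicate B), and that of E16.5 minus E11.5 was -0.73 (SE 0.13, adjusted p = 0.000272). E14.5 minus E11.5 gave -0.30, which did not pass (SE 0.13, adjusted p = 0.0743, and 0.0392 without E11.5 replicate C). Rcc1, which encodes the nucleotide exchange factor of Ran and shares the 135 bases, differed by -0.12 (E14.5 minus E11.5, adjusted p = 0.131), -0.65 (E16.5 minus E14.5, adjusted p = 3.75e-06) and -0.78 (E16.5 minus E11.5, adjusted p = 2.37e-07) on the same scale. If the reads of Rcc1 lay evenly on its exons, 4.13, 3.63 and 2.31 cpm of it would fall on the shared bases in stage order, beside 7.14, 5.72 and 4.06 cpm counted for Snhg3. The part of Rcc1 reads in the Snhg3 values was not tested.

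Snhg15, in stage order, had 2.86, 1.83 and 2.69 cpm, then 2.12, 2.11 and 1.93 cpm, then 2.05, 1.45 and 1.87 cpm. The stages overlapped. Its log2 differences between successive stages were -0.28 (SE 0.22, adjusted p = 0.303) and -0.15 (SE 0.22, adjusted p = 0.606), and that of the last against the first was -0.43 (SE 0.22, adjusted p = 0.0982, and 0.0136 without E11.5 replicate B). Per kilobase of exon at 0 h the order of the levels was Snhg6, Snhg3 and Snhg15 at each stage, with 10.2 ± 1.69, 7.24 ± 1.16 and 1.81 ± 0.406 cpm per kb at E11.5 (SD, n = 3 each). Snhg6 and Snhg3 overlapped in no stage, the nearest pools being 8.66 cpm per kb for Snhg6 and 8.57 for Snhg3 at E11.5.

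Of the 9 differences tested on Snhg3, Snhg6 and Snhg15, 4 passed. Over all 18408 genes tested, 48.6% passed from E11.5 to E14.5 (25.1% higher and 23.5% lower), 49.5% from E14.5 to E16.5 (24.1% higher and 25.4% lower) and 64.4% from E11.5 to E16.5 (31.4% higher and 33.1% lower). The count for the hosts was no higher than these shares. The stages also differ in cell makeup. The summed level of 8 progenitor markers was, in stage order, 9671 to 10201, 3504 to 4070 and 1343 to 1469 cpm, and that of 8 neuron markers 2893 to 3450, 5714 to 6369 and 8131 to 8574 cpm. The 6 erythroid markers summed to 1453 to 3209 cpm at E11.5 and to at most 75.9 cpm later. The 6 fibroblast markers summed to 434 to 665 cpm at E11.5 and to at most 48.7 cpm later. Microglia markers summed to at most 13.5 cpm and endothelial markers to at most 6.18 cpm at any stage. Stage and cell makeup cannot be told apart in these libraries.

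Levels were then followed through the chase, since a level that moves bears on a decay curve. Snhg3 was higher at 2 and 4 h than at 0 h and lower at 12 h in the E11.5 and E14.5 cultures, and Snhg15 was lower at 12 h of E16.5. At E14.5, Snhg3 had 7.22, 7.45 and 8.41 cpm at 4 h, above every pool at 0 h, and 4.22, 3.63 and 4.25 cpm at 12 h, below every pool at 0 h. Its log2 difference to 0 h was 0.42 at 4 h (SE 0.12, adjusted p = 0.0453, edgeR) and -0.49 at 12 h (SE 0.12, adjusted p = 0.0121). Neither passed when a pool was left out, with adjusted p from 0.138 to 0.318 at 4 h and from 0.0513 to 0.156 at 12 h. With the pool as a block, which follows the design, both passed (adjusted p = 0.00894 and 0.00206) and so did the rise at 2 h (0.38, adjusted p = 0.0345).

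At E11.5, Snhg3 had 11.54, 8.92 and 8.96 cpm at 4 h and 5.49, 5.33 and 4.13 cpm at 12 h. Each pool was higher at 2 and at 4 h than at 0 h and lower at 12 h. Without the block the log2 differences of 0.39, 0.44 and -0.34 at 2, 4 and 12 h did not pass (adjusted p = 0.193, 0.0577 and 0.0717), and with the block they did, at 0.40, 0.44 and -0.33 (adjusted p = 0.0103, 0.00238 and 0.00585). At E16.5 the Snhg3 level at 8 h passed with the block (-0.32, adjusted p = 0.0290). The log2 differences of Rcc1 from 0 h at 2, 4 and 12 h of E11.5 were 0.09, 0.18 and 0.13, and at E14.5 0.04, 0.07 and -0.04, and none of these 6 passed without the block. With it Rcc1 passed at 4 and 12 h of E11.5 (adjusted p = 0.0247 and 0.0491), where its level at 12 h was higher and that of Snhg3 lower than at 0 h.

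Snhg15 at E16.5 went from 2.05, 1.45 and 1.87 cpm at 0 h to 0.948, 0.630 and 1.16 cpm at 12 h. The 12 h pools lay below all 0 h pools, on 15 to 35 reads each. The log2 difference was -1.12 (SE 0.23, adjusted p = 0.00186, edgeR), and it passed in 11 of 11 alternatives, with adjusted p from 4.16e-05 to 0.0304. At 12 h of E11.5 the difference was -0.73 (adjusted p = 0.0666, and 0.0149 with the block). At E14.5 it was -0.26 (adjusted p = 0.474). Snhg6 was the steadiest of the measured hosts during the chase. Its log2 differences from 0 h lay between -0.20 and 0.15 over the 12 comparisons and none passed without the block. At 8 and 12 h of E16.5 it fell by 0.19 and 0.20 on the log2 scale when the pool was a block (adjusted p = 0.0489 and 0.0309).

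Over the 3 hosts, 0 of 12 comparisons with 0 h passed at E11.5 (5 at an unadjusted p under 0.05, and 3 by DESeq2), 2 of 12 at E14.5 and 1 of 12 at E16.5, and with the pool as a block 4, 3 and 4. Among all genes 1.33%, 6.24%, 14.1% and 23.0% passed at 2, 4, 8 and 12 h of E11.5, 1.38%, 6.61%, 6.19% and 15% in E14.5 cultures, and 5.80%, 14%, 19.4% and 26.2% at E16.5. With the block these were 4.39% at 2 h, 9.84% higher and 6.64% lower at 4 h, 23.9% at 8 h and 32.4% at 12 h of E11.5, 7.69%, 19.6%, 17.5% and 27.7% at E14.5, and 14.6%, 24.1%, 30.4% and 37.0% at E16.5. No chase response of a host was shown to differ between stages. In 1 edgeR fit of all libraries, 0 of 36 differences between stages passed (1 at an unadjusted p under 0.05), and with the block 0 of 36 (7 at an unadjusted p under 0.05). Of 16559 genes, the shares that passed at 2, 4, 8 and 12 h were 0%, 0.0302%, 2.11% and 6.07% for E14.5 against E11.5, 0%, 0%, 0.0966% and 0.906% for E16.5 against E14.5, and 0.0181%, 0.574%, 2.83% and 8.90% for E16.5 against E11.5. The RNA Gm42418 had 29686 to 67623 cpm in the E11.5 libraries at 12 h against a median of 2868 cpm over all libraries, and 14846 and 20506 cpm in pools A and B at 2 h and 18081 cpm in pool C at 8 h of E14.5. Leaving it out of the library totals changed none of the chase counts of hosts. Without these 3 E14.5 libraries, in a fit with no block, Snhg3 differed from 0 h by 0.55 at 2 h (adjusted p = 0.183, on 1 remaining library assumed to vary like the others), 0.41 at 4 h (adjusted p = 0.0365) and -0.49 at 12 h (adjusted p = 0.00819), and its 2 h call with the block was not tested without them.

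**Figure D2:**
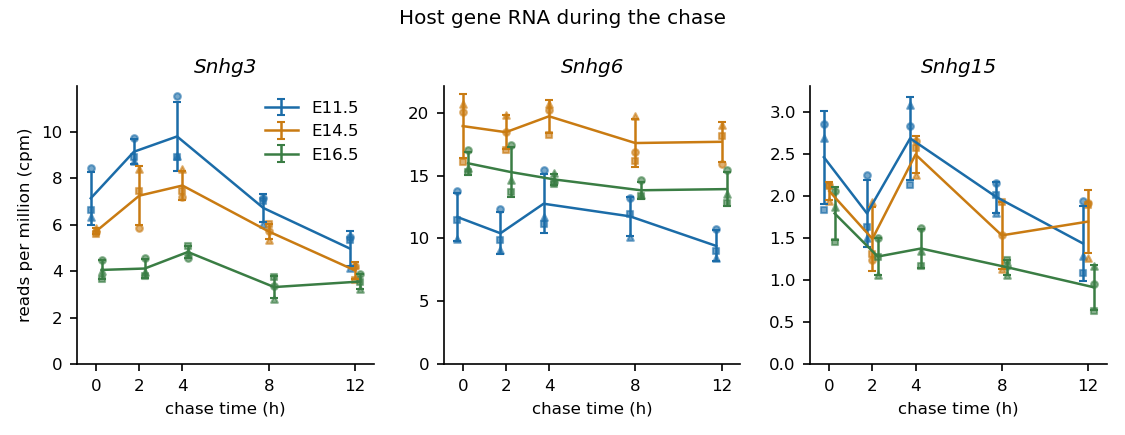
Level in cpm of Snhg3, Snhg6 and Snhg15 against chase time in hours, with 1 panel per gene. Lines join the means of 3 pools with SD bars, small markers are pools A (circle), B (square) and C (triangle), and colours are stages. Snhg3 peaked at 4 h with 9.81 cpm at E11.5 and 7.69 cpm at E14.5, and Snhg15 at E16.5 declined to 0.913 cpm at 12 h.

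Next, the label itself was compared. The conversion rate is the share of covered Ts read as C, and at 0 h it depends on both the label taken up by the culture and the turnover of the RNA over 20 h, so each rate was set against the median gene of its library. Snhg6 had a higher conversion rate at 0 h than most genes at each stage. The share of its conversions that does not come from label was not tested. Its 0 h rates by pool, in stage order, were 1.99%, 1.89% and 1.86%, then 1.59%, 1.97% and 1.48%, then 2.26%, 2.47% and 2.30%, which is 1.65 ± 0.317, 1.48 ± 0.121 and 1.27 ± 0.0400 times the median gene (SD, n = 3 each). It ranked at percentiles 95.7 ± 3.26, 93.7 ± 2.17 and 91.2 ± 1.21 among the genes of a library. Snhg3 was near the median gene, at 0.977 ± 0.136, 1.12 ± 0.210 and 1.02 ± 0.142 times its rate (SD, n = 3 each). Snhg15 had 1.16 ± 0.468, 0.733 ± 0.304 and 1.02 ± 0.374 times the median rate, on 5 to 23 converted Ts a library, a spread too wide to place it.

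Between stages, 0 of 9 differences in relative label passed limma's test (1 at an unadjusted p under 0.05), among 12522 genes of which 0.152% passed for E14.5 against E11.5, 17.0% for E16.5 against E14.5 and 17.0% for E16.5 against E11.5. That 1 was Snhg6 in E16.5 against E11.5, at a log2 difference of -0.36 (SE 0.14, adjusted p = 0.121; 0.00710 without E11.5 replicate C). The median gene had a rate of 1.19%, 1.13% and 1.85% in stage order, and without division by the median gene 4 of 9 differences passed, all higher at E16.5.

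Half-lives were fitted to the rates of each pool. A transcript was kept if each of its 3 pools had over 500 covered Ts at every time, an R2 over 0.6 and a half-life under 24 h. Snhg3 met these criteria at every stage, Snhg6 at E16.5 and Snhg15 at none. The E11.5 pools gave Snhg3 half-lives of 7.54, 5.80 and 4.42 h, the E14.5 pools 8.73, 4.13 and 5.04 h, and the E16.5 pools 3.71, 4.67 and 4.33 h. The stages overlapped. The means were 5.92 ± 1.56, 5.97 ± 2.44 and 4.23 ± 0.488 h (SD, n = 3 each), beside medians of 4.43, 4.60 and 3.48 h over 10858, 10686 and 11850 transcripts. Its percentiles among the transcripts were 74.4 ± 13.7, 64.0 ± 27.5 and 67.4 ± 8.61 (SD, n = 3 each). Single pools of Snhg3 at E14.5 ran from the 41.7th to the 94.8th percentile, and without E14.5 replicate A the mean percentile there was 48.2. When the fit began at 2 h in place of 0 h, the mean percentile of Snhg3 was 45.02, 72.0 and 54.5. Summing the pools gave half-lives of 5.56, 5.56 and 4.43 h.

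The relative half-life of Snhg3 did not pass limma's F-test between stages (adjusted p = 0.934), and leaving out each of the 9 pools gave adjusted p from 0.416 to 0.986. Of 9505 transcripts 3.15% passed this test, and 0.20%, 0.884% and 4.70% passed for E14.5 against E11.5, E16.5 against E14.5, and E16.5 against E11.5. The z-scored differences of Snhg3 were -0.08, -0.21 and -0.29 (SE 0.59 for each), so that each lay within its SE. Rcc1 had half-lives of 4.72 ± 0.857, 4.62 ± 0.277 and 3.35 ± 0.167 h (SD, n = 3 each).

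At 12 h Snhg6 kept a larger share of its 0 h conversion rate than Snhg3 on average at each stage. At E16.5 its half-lives were 7.53, 5.67 and 7.51 h, a mean of 6.91 ± 1.07 h (SD, n = 3), which was 2.00 ± 0.307 times the median transcript and at percentile 92.7 ± 4.94. The mean rate fell from each time to the next there, and the fits had R2 between 0.946 and 0.963. In pool B the rate was 0.684% at 8 h and 0.751% at 12 h. At E11.5 the curve had another shape. The rate of Snhg6 fell to 54.5% ± 16.2 of its 0 h value by 4 h and then stood at 61.5% ± 9.03 at 8 h and 56.2% ± 6.91 at 12 h (SD, n = 3 each), whereas the median gene went from 47.2% at 4 h to 20.7% at 12 h. At 12 h the pools had 0.963%, 1.16% and 1.10% conversion, from 42, 62 and 52 converted Ts, with exact binomial 95% intervals of 0.695 to 1.30%, 0.890 to 1.48% and 0.822 to 1.44%, which cover counting error only. All lay far above the median gene of 0.235%, and Snhg6 ranked at percentile 98.2 ± 0.287 of the genes of the library (SD, n = 3). A simple exponential fitted these points poorly, with an R2 of 0.339 for the summed pools against 0.958 for a curve with a constant of 56.8% of the 0 h rate. That curve was chosen after the points were seen and has 1 more free term.

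At E14.5 Snhg6 had 55.9% ± 13.8 of its label at 2 h, 68.5% ± 10.1 at 4 h, 42.6% ± 1.52 at 8 h and 31.6% ± 16.6 at 12 h (SD, n = 3 each), with 50.4% in pool A against 19.1% and 25.4% in pools B and C. Pool A failed the R2 filter (0.548). At E16.5 the share at 12 h was 30.9% ± 6.99 against 11.7% for the median gene. In pool C of E11.5 the exponential was worse than a flat line (R2 -0.287). In 7 of 9 pools the Snhg6 half-life passed the filters of its own pool, with values from 4.60 to 13.5 h, but a mean over 3 pools can be given only at E16.5. Its level in reads did not pass at any of these hours without the block, but with it the level was lower at 8 and 12 h of E16.5 (above). The fit to the labelled amount, rate times cpm, gave 5.84 ± 0.599 h for E14.5 pools and 5.93 ± 0.933 h for E16.5 pools (SD, n = 3). The rate alone gave 6.91 h at E16.5. No unlabelled library was used here, so the share of Snhg6 conversions that does not come from label was not tested.

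**Figure D3:**
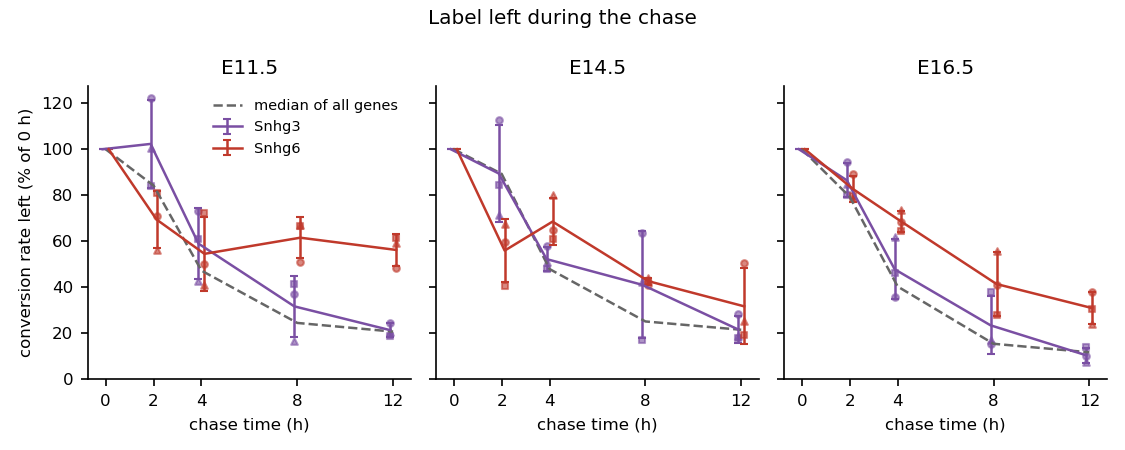
Conversion rate left, in percent of the 0 h rate, against chase time in hours for Snhg3 (purple) and Snhg6 (red), with 1 panel per stage. Lines join means of 3 pools with SD bars, markers are pools A (circle), B (square) and C (triangle), and the dashed line is the median of all genes. Snhg6 ended at 56.2% at E11.5 and 30.9% at E16.5, above the dashed line at 20.7% and 11.7%, while Snhg3 ended near it.

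Snhg15 was at the edge of what the depth allows. Its covered Ts exceeded 500 in 36 of 45 libraries. Over the summed pools its rate went from 1.27% (33 converted Ts) at 0 h to 0.599% at 2 h and 0.320% at 4 h of E11.5, and from 1.86% (48 converted Ts) to 0.777% and 0.633% at E16.5. The fitted half-lives of the sums were 2.38, 5.67 and 2.23 h in stage order, and at E14.5 the rate at 0 h was 0.812% and that at 2 h 0.900%. Single pools at E14.5 gave 11.54, 1.62 and 24.2 h, of which only the second passed the filters. At 12 h each library held 0 to 3 converted Ts, and decay of Snhg15 was not compared between stages.

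The hosts were then set beside other genes of the pathway, on lists chosen with earlier results of these data known. Transcripts of ribosomal proteins, matched by name and many of them hosts, were among the longest lived. List medians were 10.7, 10.9 and 7.04 h over 48, 45 and 53 measured members of 83 with a row. The criteria keep only half-lives under 24 h, so these medians cover only members below that limit. The 181, 181 and 194 measured protein-coding hosts, taken from the annotation, had medians of 4.68, 4.92 and 3.69 h, near the 56th to 58th percentile. Half-lives of mRNAs for snoRNP proteins, which assemble with snoRNAs, had medians of 4.86, 5.18 and 3.89 h. They ran from Nufip1 (3.09 ± 0.430, 3.31 ± 0.730 and 1.92 ± 0.0179 h) and Shq1 (2.59 ± 0.235, 3.83 ± 0.3997 and 2.76 ± 0.412 h), which assist assembly, to Nop10 (8.77 ± 2.70, 6.94 ± 0.997 and 5.64 ± 0.588 h), a core protein of H/ACA particles, and Pih1d1 (7.38 ± 2.40, 7.68 ± 1.51 and 6.40 ± 0.961 h; SD, n = 3 each). Of 19 snoRNP mRNAs tested at 0 h by edgeR, E16.5 exceeded E11.5 in 0 and was below it in 11, with a median log2 difference of -0.33, beside 31.4% higher and 33.1% lower and a median of -0.04 over all genes tested.

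NMD factor mRNAs had medians of 4.19, 4.83 and 3.75 h. Smg8, a subunit of the SMG1 kinase complex, had 2.28 ± 0.185, 2.49 ± 0.454 and 1.65 ± 0.0447 h, and Upf2, a core NMD factor, 2.99 ± 0.343, 3.74 ± 0.388 and 2.50 ± 0.105 h. The longest were Rnps1, an exon junction protein (4.89 ± 0.441, 4.84 ± 0.3002 and 5.40 ± 0.281 h), and Upf3b, which links the junction to Upf2 (5.13 ± 0.609, 6.30 ± 1.17 and 4.32 ± 0.724 h; SD, n = 3 each). Of 18 tested at 0 h, E16.5 exceeded E11.5 in 3 and was below it in 5, so that 8 passed, a lower share than the 64.4% of all genes. The 14 measured mRNAs of a list of NMD-sensitive coding genes had medians of 4.51, 4.14 and 3.10 h. Gadd45a, a stress gene and classical NMD target, had 2.20 ± 0.505, 1.97 ± 0.319 and 1.30 ± 0.0772 h, and Chac1, a glutathione-degrading enzyme, 2.02 ± 0.521, 2.74 ± 0.368 and 1.42 ± 0.0658 h. At the other end of the list were Srsf2 (4.73 ± 0.403, 4.92 ± 0.137 and 4.54 ± 0.183 h) and Rps9 (12.9 ± 1.25, 14.6 ± 2.09 and 9.37 ± 0.423 h; SD, n = 3 each). The mean half-lives of Snhg3 and of Snhg6 at E16.5 lay above the median of this list at each stage where they were measured. Single pools of Snhg3 did not all do so, since E11.5 pool C, at 4.42 h, and E14.5 pool B, at 4.13 h, lay below it. Rcc1, which shares exon bases with Snhg3, had mean half-lives of 4.72, 4.62 and 3.35 h, also above these medians. The part of Rcc1 reads in the Snhg3 values was not tested. The comparison covers only hosts that met the half-life criteria, and Snhg15 met them nowhere. Its summed-pool fits, on few converted Ts, were 2.38, 5.67 and 2.23 h by stage. These were shorter than the list median except for E14.5, where the fit was longer. Whether the hosts as a group outlast this list was not tested.

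Of 11 further snoRNA host lncRNAs, 9 had a row and 3 had a half-life at some stage. Snhg14, the imprinted host of the Snord115 and Snord116 clusters, had 11.3 ± 4.03 h in E14.5 pools and 8.75 ± 0.607 h in E16.5 pools. At E16.5 Snhg10 had 4.04 ± 0.945 h, and at E14.5 Snhg18 had 5.06 ± 1.92 h (SD, n = 3 each). Of 6 further hosts tested at 0 h by edgeR, E16.5 exceeded E11.5 in 2 and was below it in 1, beside 31.4% higher and 33.1% lower over all genes tested. Among those with a half-life, Snhg14 rose by 2.28 (adjusted p = 2.16e-08) and Snhg18 fell by 1.88 (adjusted p = 5.76e-06) on the log2 scale. Snhg10 differed by 0.52 (adjusted p = 0.0648).

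**Figure D4:**
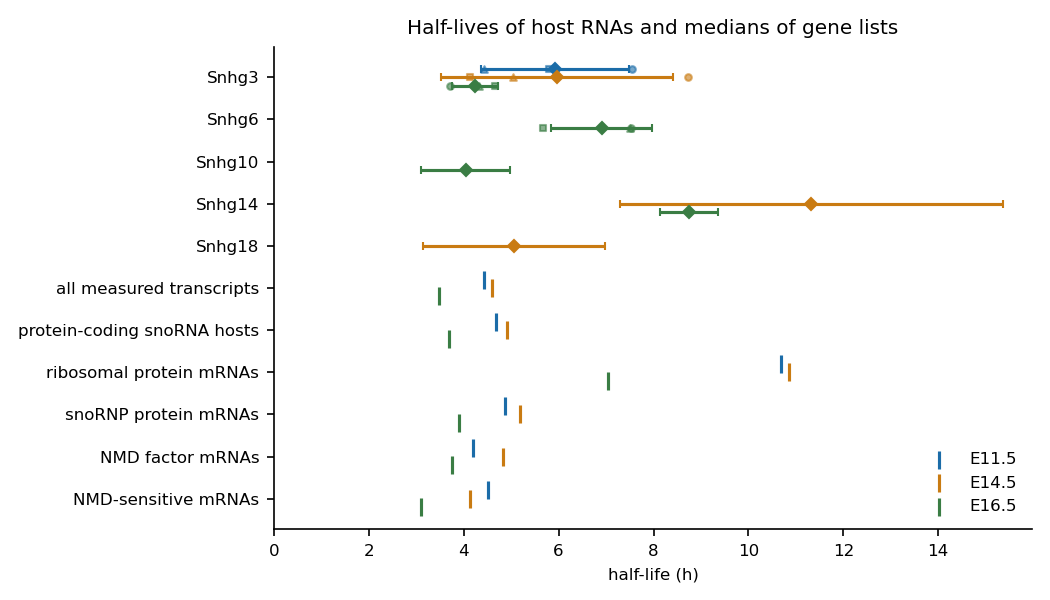
Half-lives in hours of single host RNAs (upper 5 rows: diamonds are means of 3 pools with SD bars, small markers are the pools of Snhg3 and Snhg6) and medians of gene lists (lower rows, vertical ticks), coloured by stage. Snhg6 at E16.5, at 6.91 h, lay near the ribosomal protein median of 7.04 h, and the means of Snhg3 lay between that list and the median of all transcripts. Single pools of Snhg3 varied, and E14.5 pool B, at 4.13 h, lay below the median of all transcripts of 4.60 h.

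Over the 15 group means of log2(cpm + 0.5), the levels of Snhg3 and Snhg15 correlated across groups with Pearson's r = 0.755, those of Snhg3 and Snhg6 with r = -0.169 and those of Snhg6 and Snhg15 with r = 0.0314. Snhg3 and Rcc1, which share exon bases, correlated with r = 0.816. Groups of one stage share pools, and this is a description. The genes outside the list with the profile most like the mean of the 3 hosts, among 11504 with at least 5 cpm, were Nop14 (r = 0.958), a ribosome biogenesis factor, Pitpnb (0.946), Zzz3 (0.942), Sf3b1 (0.936) and 0610030E20Rik (0.934). That mean joins profiles that mostly do not correlate, and none of these 5 genes was among the 5 most like any single host. The single lists were led by Tstd2 for Snhg3 (r = 0.959), Nfib for Snhg6 (0.973) and Tspyl2 for Snhg15 (0.953).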

How the data were processed

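SLAM-seq was measured in 45 libraries of primary mouse cortical cells. The authors aligned reads to mm10 with SlamDunk and summed values over GENCODE exons, and deposited 1 table per stage and pool (9 tables). Covered Ts were deposited as raw counts, the conversion rate as a fraction (printed as percent), and expression as CPM, from which whole reads were recovered for 100% of values within 0.01 reads. Half-lives deposited by the authors (unit other: hours) and the R2 score were not used as values: curves exp(-kx) were refitted, and 99.99% of 115612 fits were within 1% of theirs. Of the gene names, 96.6% were in GENCODE release M21. That release gave the exons used here for overlaps and lengths, and the authors used a later one. A total of 0 columns had no sample.

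Levels were compared with edgeR 4.0.16 (quasi-likelihood, TMM, more than 10 covered Ts in all libraries of a fit), and half-lives z-scored within a pool and log2 relative labels with limma 3.58.1, all with Benjamini-Hochberg adjustment over all features and a threshold of 0.05. P-values for stages rest on 3 pools each. DESeq2 1.42.0, another scaling, recovered reads, other filters, log2(cpm + 0.5) in limma, leaving out each pool and the replicate letter as a block were alternatives. Within a stage the letter marks wells of 1 pool, so it pairs libraries (deviations from the group means correlated by 0.0199 to 0.769 with those at 0 h), and between stages it does not (-0.200 to 0.180). The tests were run on simulated data first. Covered Ts are not independent, since a read covers several. Each host with values is named, other host lncRNAs with a half-life are named, and other lists give their 2 shortest and 2 longest members measured at all stages, with ribosomal protein and protein-coding host lists given by medians. Similar profiles are the 5 genes with the highest r and at least 5 cpm. The members and lists were chosen with earlier results of these data known. Computations used R 4.3.3 and Python 3.11.15.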

Additional observations from a re-analysis of the deposited data

Results flagged for a closer look

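The snoRNA genes inside the hosts were not compared as genes of their own. A pair of them had reads listed under their own names, above the 3 reads that a count of 0 allows. Snora73b, inside Snhg3 and also inside the span of Rcc1 on the same strand, had up to 112 reads in a library, with medians of 0.998, 0.646 and 0.347 cpm over the 15 libraries of each stage, in stage order. Snord87, inside Snhg6, had up to 12 reads in a library. Whether these reads came from mature snoRNAs or from unspliced RNA of Snhg3, Rcc1 or Snhg6 was not tested.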

How the results depend on the processing

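Of 144 values of single hosts at 0 h under alternatives, 140 kept their side of the threshold, and no called value changed sign. Of 9 stage differences in level 4 passed, and 3 to 5 when a pool was left out. Of 12 chase comparisons at E11.5 0 passed, against 2 with library totals only, 3 by DESeq2, 1 without a filter on low counts, 2 by limma on log2(cpm + 0.5) and 4 with the replicate block. At E14.5 2 passed, against 1 without a filter and 1 by limma, 0 without replicate A, B or C, and 3 with the replicate block. At E16.5 1 passed, against 2 with library totals only, with recovered reads, by DESeq2 or by limma, and 4 with the replicate block. The block changed no call at 0 h, in half-life or in label. For label at 0 h 0 of 9 passed, 4 when rates were not divided by the median gene, and 0 to 1 when a pool was left out. Without 0 h the percentile of Snhg3 was 45.02 at E11.5 (with 0 h, 65.8 to 79.1 when a pool was left out) and 54.5 at E16.5. R2 over 0.8 left a half-life of Snhg3 at E16.5 only, covered Ts over 2000 at E11.5 only, and the labelled amount at E14.5 and E16.5, and the test over all 3 stages was not run with these. The causes were not tested.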
